A study of Mus musculus with 6 samples.

Results

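The replication-dependent histone genes encode the bulk histones that package newly copied DNA: the core histones H2A, H2B, H3 and H4, and the linker histone H1. They were taken as the protein-coding genes of the GENCODE vM21 mouse annotation (build GRCm38) whose symbols start with Hist1h, Hist2h, Hist3h or Hist4. The annotation has 67 such genes, and 65 of the 46078 genes in each table are among them; Hist1h2bh and Hist1h2bm were not analysed here. By type they were 6 H1, 18 H2A, 16 H2B, 12 H3 and 13 H4 genes. By cluster they were 52 Hist1 genes on chromosome 13, in blocks of 22 genes at chr13:21715763-22043676 and 30 genes at chr13:23531050-23934851, 10 Hist2 genes at chr3:96219865-96270132, 2 Hist3 genes at chr11:58948920-58956830, and Hist4h4 at chr6:136801553-136804415. Hist1h2aa, with at most 2 counts in any library, was too low to test, which left 64 tested genes.

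Total RNA of mice was sequenced in 3 libraries labelled with the genotype juvenile myelomonocytic leukemia (JMML), a myeloid blood cancer of young children, and in 3 libraries labelled wild type (WT). Per the series title, they come from mice that model a juvenile leukemia with prolonged fetal-type blood formation. The labels used here name neither the altered gene, the strain, the age nor the tissue, and do not say whether the 3 libraries of a group came from separate animals, so the p-values below measure the spread between these libraries. The kit was of the stranded total-RNA kind: it removes ribosomal RNA and keeps RNA without a poly(A) tail, which matters for histone mRNA.

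Replication-dependent histone genes are transcribed mainly in S phase, when new DNA must be wrapped, and most lack introns. Their mRNAs are the known metazoan mRNAs that end in a conserved stem-loop in place of a poly(A) tail, which the stem-loop binding protein Slbp holds through processing, export, translation and decay. In blood-forming tissue, as elsewhere, their level depends on how many cells are copying DNA, and in bulk RNA fewer such cells and less histone mRNA per cell cannot be told apart.

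The annotated transcripts carry these hallmarks. Of the 65 genes, 60 have 1 exon, and the median exon length of the tested genes was 555.5 bases. A stem-loop was searched on the transcribed strand after the stop codon as the letters GGNNC, then TTTT, then NAGNNCC with no gap, N being any base. It was found in 42 genes, 21 to 58 bases after the stop. Of the 23 genes with no match, 17 have fewer than 50 annotated bases after the stop. The sequences below (GENCODE vM21 transcripts, GRCm38, 5′ to 3′ on the strand of each gene) show the stem-loop in capitals for genes of each core type that are described further on. The form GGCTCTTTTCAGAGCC occurred in 24 genes, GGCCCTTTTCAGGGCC in 7 and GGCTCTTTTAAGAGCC in 6.
Hist2h2aa2 (H2A, chr3:96239749-96240276, minus strand): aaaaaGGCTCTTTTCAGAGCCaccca
Hist1h2ad (H2A, chr13:23574381-23574952, plus strand): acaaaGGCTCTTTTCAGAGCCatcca
Hist2h2ac (H2A, chr3:96220361-96220880, minus strand): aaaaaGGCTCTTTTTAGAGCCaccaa
Hist1h2bb (H2B, chr13:23746734-23747241, plus strand): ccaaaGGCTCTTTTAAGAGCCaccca
Hist3h2ba (H2B, chr11:58948920-58949533, plus strand): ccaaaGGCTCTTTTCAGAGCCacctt
Hist1h3c (H3, chr13:23744973-23745602, minus strand): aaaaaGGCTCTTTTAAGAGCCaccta
Hist1h4d (H4, chr13:23581598-23582735, plus strand): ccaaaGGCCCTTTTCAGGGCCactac
The letters were not found in the 2192 annotated bases after the stop codon of Hist2h2be, an H2B variant known from mouse olfactory neurons.

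The promoters of the types differ in the short elements they hold. RefSeq windows (GRCm38.p6) from 250 bases before to 50 bases after the start were given for 60 of the 65 genes, and 4 sets of letters were searched on both strands. The octamer ATTTGCAT, the site of the factor Oct-1 (Pou2f1), was in 6 of 14 H2B and 7 of 18 H2A windows. It was in 0 H1, H3 or H4 windows and in 1.74% of all 32851 promoter windows. Windows of neighbouring H2A and H2B genes on opposite strands can overlap, so the same site can count for both types. For the octamer this held in Hist1h2aa and Hist1h2ba, in Hist1h2ae and Hist1h2bg, and in Hist1h2ah and Hist1h2bk. The letters CCAAT were in every H1, H2A, H2B and H3 window and in 3 of 12 H4 windows, against 37.4% of all windows. The letters GGTCCG, part of the known H4 promoter element, were in 11 of 12 H4 windows, in 1 of 10 H3 windows and in 8.25% of all windows. The letters TATAAA were in 58.3% of the histone windows and 13.6% of all windows. A match describes these letters only. A window of each of 3 types is shown, with the matched letters of these 4 elements in capitals.
Hist2h2ac (H2A, chr3:96220831-96221130, minus strand): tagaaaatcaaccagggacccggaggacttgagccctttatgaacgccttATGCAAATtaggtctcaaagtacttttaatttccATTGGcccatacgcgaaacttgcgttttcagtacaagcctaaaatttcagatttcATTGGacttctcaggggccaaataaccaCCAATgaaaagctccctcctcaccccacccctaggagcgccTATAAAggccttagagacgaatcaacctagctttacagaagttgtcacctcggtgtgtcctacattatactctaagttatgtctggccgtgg
Hist1h2bb (H2B, chr13:23746484-23746783, plus strand): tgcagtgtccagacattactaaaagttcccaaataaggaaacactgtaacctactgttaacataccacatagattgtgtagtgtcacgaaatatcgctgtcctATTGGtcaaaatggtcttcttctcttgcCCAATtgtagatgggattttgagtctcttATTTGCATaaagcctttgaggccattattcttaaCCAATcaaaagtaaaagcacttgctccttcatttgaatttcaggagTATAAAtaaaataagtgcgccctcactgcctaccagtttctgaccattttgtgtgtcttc
Hist1h4d (H4, chr13:23581318-23581617, plus strand): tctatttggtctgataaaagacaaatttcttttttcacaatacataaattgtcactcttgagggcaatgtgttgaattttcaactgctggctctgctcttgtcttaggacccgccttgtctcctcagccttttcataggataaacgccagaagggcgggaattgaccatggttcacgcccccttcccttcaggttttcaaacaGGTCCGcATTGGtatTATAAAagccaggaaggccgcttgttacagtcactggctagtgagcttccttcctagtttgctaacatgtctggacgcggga
The Hist2h2ac window covers the whole 239 bases to the start of its head-to-head neighbour Hist2h2be, so the octamer, read here as ATGCAAAT on the minus strand, lies between the 2 genes.

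Levels are given as CPM, the count of a gene per 1000000 counts of its library, at library sizes scaled by the trimmed mean of M values (TMM). The 6 libraries held 91976512, 108395459 and 95382538 counts in JMML and 61656272, 47096464 and 56163368 counts in WT, so the JMML libraries were deeper. Histone genes took 2.53%, 2.53% and 3.00% of the counts in JMML and 2.94%, 1.86% and 2.29% in WT. WT replicate 1 stood apart from the other WT libraries in its H2A and H3 genes, as described below, so results on those types are given with and without it. Near-identical copies share reads, and how the authors treated reads that map to several genes is not given in the sources used here. The values of copies, and sums over genes, are uncertain for that reason.

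Summed over the 65 genes, histone mRNA was at 28426, 26057 and 31521 CPM in JMML and at 27885, 16768 and 22116 CPM in WT. The groups overlapped: WT replicate 1 lay within the range of the JMML libraries and WT replicate 2 was the lowest of the 6. The ratio of the group means was 0.37 on the log2 scale, against a pooled SD of 0.28 between replicates. Leaving out WT replicate 1 gave 0.56, leaving out WT replicate 2 gave 0.20, and library totals in place of TMM gave 0.19.

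No histone gene was called higher and 1 gene, Hist2h2be, was called lower in JMML in the quasi-likelihood test of edgeR (Benjamini-Hochberg adjustment over 18097 tested genes, threshold 0.05), where 12.4% of all tested genes were called higher and 13.8% lower. The share of histone genes called was below the background in both directions. On simulated data with 88 calls among 17647 genes, this test called 0 of 50 genes changed 1.5-fold and 8 of 50 changed 2-fold. The real data had far more calls (2245 higher and 2492 lower), which loosens the cut on p. The simulated shares therefore do not carry over to it. Changes under 1.5-fold were called in the real data, such as Lsm1 and Mki67 (log2 fold changes of 0.45 and -0.45). Still, no call does not mean no change. At an unadjusted p under 0.05 there were 12 of the 64, against 40.9% of all tested genes, and DESeq2's Wald test called 2 higher (Hist1h1c and Hist1h2be) and 2 lower (Hist2h2be and Hist3h2ba), against 15.1% and 16.9% of all tested genes. With no filter on low counts, edgeR called Hist1h1c and Hist1h2be higher and 0 lower, against 6.95% and 6.62% of all genes. The estimates were nevertheless mostly on the positive side. The log2 fold change (JMML over WT) was above 0 in 58 of 64 genes with a median of 0.37. It was above 0 in 48.5% of all tested genes and in 67.9% of the shortest 10% of other protein-coding genes, described below. The 64 genes share libraries and in part reads, so they are not separate measurements. Under library totals 54 of 64 were above 0 with a median of 0.19. That scaling put the median of all tested genes at -0.21, against -0.02 with TMM. Over all tested genes that scaling called 1280 higher and 3460 lower, against 2245 higher and 2492 lower with TMM. The lowest JMML library was above the highest WT library in 13 genes and the highest JMML library below the lowest WT library in 2 genes, against 22.9% and 24.6% of all tested genes.

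**Figure D1:**
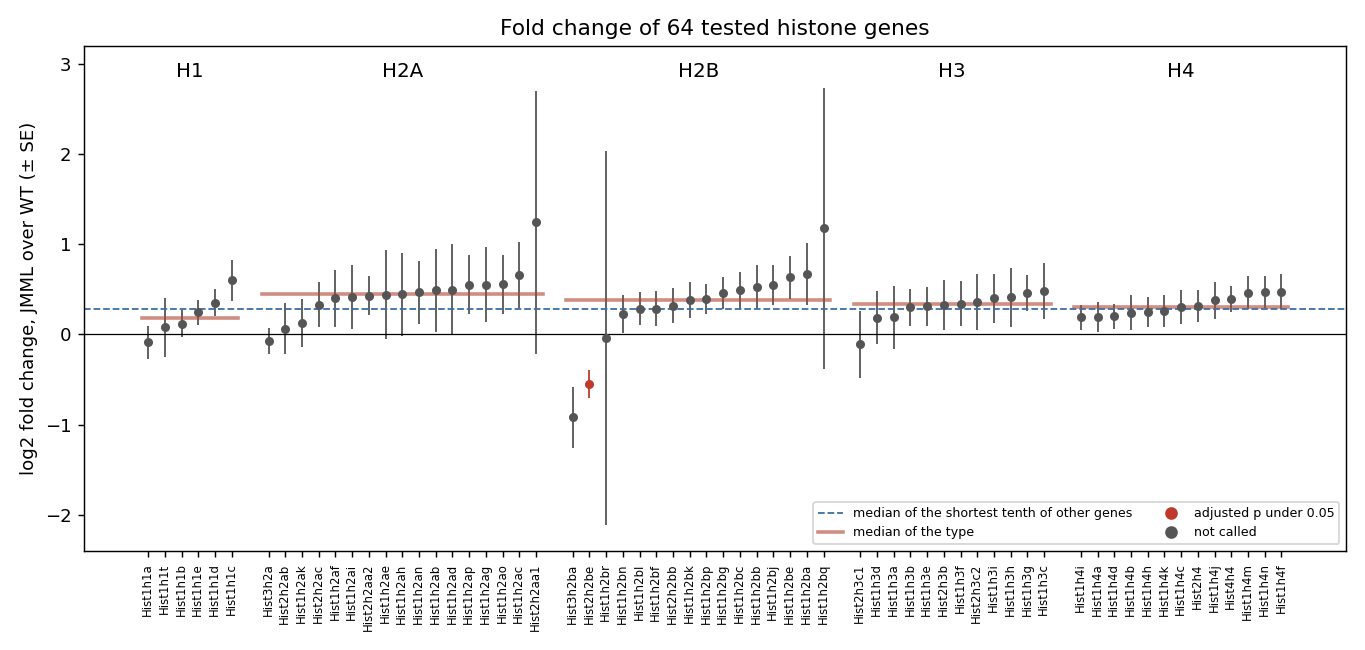
The log2 fold change (JMML over WT, vertical axis) of each of the 64 tested histone genes is drawn with its standard error, grouped by histone type and ordered by size within a type. Solid bars mark the median of each type, from 0.18 in H1 to 0.44 in H2A, the dashed line marks the median of 0.28 in the shortest 10% of other genes, and Hist2h2be is the gene with an adjusted p under 0.05.

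The rule for the comparison set the histone genes against the shortest other genes, and there the difference was small. Fold changes in these libraries ran with exon length: the median log2 fold change was 0.28 in the shortest 10% of other tested protein-coding genes (1401 genes of up to 1721 bases) and -0.29 in the longest 10%. The histone median of 0.37 was 0.09 above that of the shortest genes. The replicates gave the histone median a spread of 0.29. That is the spread of this median alone and not of the difference, so it cannot be used to judge the 0.09. The shares called were apart, with 21.9% of those shortest genes called higher and 7.42% lower, against 0 and 1 of the 64 histone genes. Of the tested histone genes, 54 lie within the length range of that class. The class is not matched for length, though: its median exon length was 1296 bases, against 555.5 in the histone genes. The choice of reference class moved its median: it was 0.23 in the shortest 20%, 0.04 in 337 other genes with 1 exon, and 0.07 in 11071 genes within the full length range of the histone genes. With the trend with length taken out of each library, the histone median was 0.18.

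**Figure D2:**
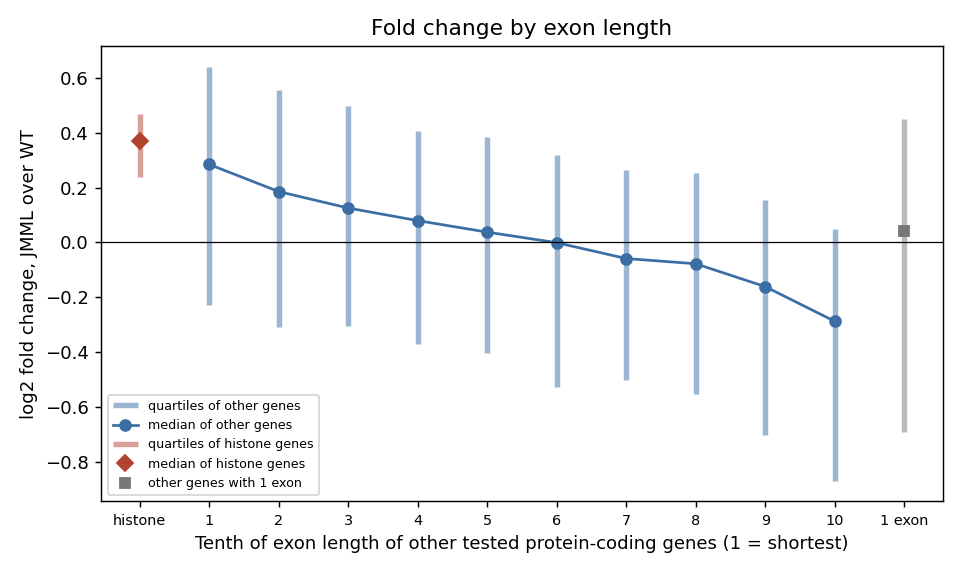
Median (point) and quartiles (bar) of the log2 fold change (JMML over WT) are shown for the 64 tested histone genes, for other tested protein-coding genes in 10 classes of exon length from shortest to longest, and for other genes with 1 exon. The histone median of 0.37 lies close to the 0.28 of the shortest class, and the classes step down to -0.29.

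By cluster, the median log2 fold change was 0.40 over 51 tested Hist1 genes, 0.32 over the 10 Hist2 genes and -0.50 over the 2 Hist3 genes, and Hist4h4 had 0.39 ± 0.14 (SE, adjusted p = 0.0832). Within Hist1 it was 0.41 in the block of 22 genes and 0.35 in the block of 30. Hist1 genes summed to 24064, 21733 and 26728 CPM in JMML and 23021, 14272 and 19141 CPM in WT. Hist2 genes summed to 3827, 3843 and 4184 CPM in JMML and 4278, 2048 and 2489 CPM in WT. In Hist1 WT replicate 1 lay within the JMML range and in Hist2 above it, and the other WT libraries were below all JMML libraries in both clusters. With the higher copy of 3 identical pairs in place of both, Hist2 summed to 2745, 2663 and 3531 CPM in JMML and 2967, 1821 and 2219 CPM in WT, and WT replicate 1 lay within the JMML range there too.

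The 6 H1 genes encode the linker histones that bind DNA between nucleosomes, and 0 of them passed the test; the median of their log2 fold changes was 0.18. Hist1h1c was at 1742, 1304 and 1361 CPM in JMML and 1188, 689 and 1034 CPM in WT. All JMML libraries were above all WT libraries, and the log2 fold change was 0.60 ± 0.23 (SE, adjusted p = 0.09). It was past the threshold with DESeq2 (adjusted p = 0.0356) and with no filter on low counts (adjusted p = 0.0466). Hist1h1d was at 1203, 1164 and 1358 CPM in JMML and 1078, 830 and 1016 CPM in WT, also without overlap, and Hist1h1e at 1188, 1233 and 1311 CPM in JMML and 1097, 908 and 1141 CPM in WT. Their log2 fold changes were 0.35 ± 0.15 and 0.25 ± 0.14 (SE, adjusted p = 0.123 and 0.226). Hist1h1a, which overlapped, was at 837, 607 and 875 CPM in JMML and 868, 697 and 902 CPM in WT. Hist1h1t, the linker histone of the testis, stayed near 1 CPM, at 0.656 to 1.04 CPM in JMML and 0.708 to 0.98 CPM in WT.

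The H2A genes gave the widest spread within WT. Their sum was 4945, 4551 and 5508 CPM in JMML and 5888, 2330 and 2492 CPM in WT. WT replicate 1 was above all JMML libraries, and the other 2 WT libraries were below all of them. WT replicate 1 stood at 2.44 times the mean of WT replicates 2 and 3 for the H2A sum, at 1.78 times for H3, and at 1.16, 1.12 and 1.25 times for H1, H2B and H4. Taking the higher copy of 3 identical pairs gave H2A sums of 4199, 3744 and 5025 CPM in JMML. In WT they were then 5052, 2317 and 2483 CPM, with WT replicate 1 at 2.10 times the mean of the others and barely above JMML replicate 3. The identical copies Hist1h2ao and Hist1h2ap were still both counted. With all copies counted, H2A relative to the H4 sum of the same library was at 0.721, 0.757 and 0.725 in JMML and at 0.932, 0.52 and 0.442 in WT. The JMML libraries were close together, and the WT libraries lay on both sides of them.

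**Figure D3:**
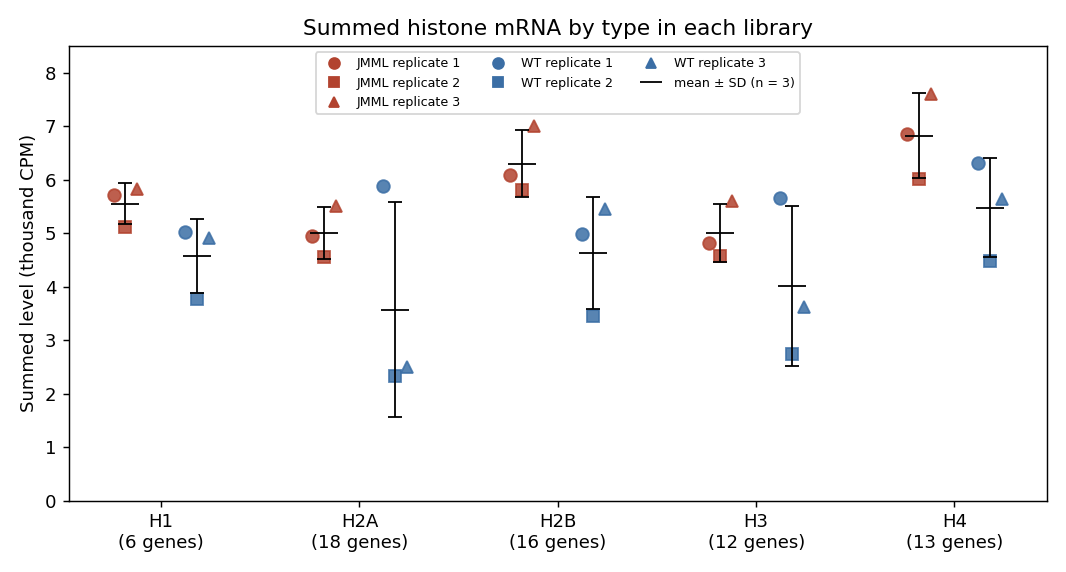
Summed level (CPM, vertical axis in units of 1000) of all genes of each histone type is drawn for each library, JMML left of WT, with the mean and SD of the 3 replicates. In H2A and H3, WT replicate 1 (5888 and 5666 CPM) stands apart from WT replicates 2 and 3, which is not so in H1, H2B and H4.

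None of the 17 tested H2A genes passed the test with all 6 libraries, and their median log2 fold change was 0.44. Without WT replicate 1, 12 of the 17 were called higher with a median of 1.12, together with 2 of 12 H3 genes (Hist1h3c and Hist1h3h), Hist4h4, and 0 H1 and 0 H2B genes, and 0 histone genes were called lower, where 7.67% of 19666 tested genes were called higher and 8.28% lower. The 12 include Hist2h2aa1, whose low counts in WT replicates 2 and 3 are not shared by its identical copy Hist2h2aa2, and the identical copies Hist1h2ao and Hist1h2ap, so they are not 12 separate measurements. WT replicate 1 was singled out by its high H2A and H3 values, so higher estimates without it follow from that choice. They are no separate support for a difference. Leaving out WT replicate 2 instead gave 0 histone calls and a median of 0.16 over the 64 genes. Which of the WT libraries is typical of WT was not tested, and 3 libraries cannot show it. Hist1h2ab was at 378, 296 and 450 CPM in JMML and 491, 134 and 175 CPM in WT. Its log2 fold change was 0.49 ± 0.46 (SE, adjusted p = 0.457), and 1.32 ± 0.24 (SE, adjusted p = 0.0215) without WT replicate 1. Hist1h2ak was at 373, 324 and 458 CPM in JMML and 507, 267 and 280 CPM in WT, and Hist2h2ac at 297, 274 and 377 CPM in JMML and 349, 190 and 214 CPM in WT. Both repeat the order of the H2A sum within WT. Hist2h2ab, the Hist2 member with few counts, was at 14.1, 11.6 and 14.1 CPM in JMML and 18.9, 9.39 and 9.84 CPM in WT. Hist3h2a departed from the others, at 241, 224 and 296 CPM in JMML and 299, 242 and 259 CPM in WT, where WT replicate 1 was at 1.19 times the mean of the other 2.

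A ratio of 2 or more between WT replicate 1 and the mean of WT replicates 2 and 3 occurred in 16 of 64 histone genes, which were 12 H2A, 3 H3 and 1 H2B, and in 1.34% of all tested genes. The H2B gene was Hist1h2bq (ratio of 2.13), with 0 counts in WT replicate 2, where its identical copy Hist1h2br had 12551, and the H2A genes include Hist2h2aa1 (75.7), low in WT replicates 2 and 3 while its copy was not. The median of this ratio was 1.41 in histone genes, 1.02 in the shortest 10% of other genes and 0.974 in all tested genes. WT replicate 2 was the lowest of the 6 libraries in 53 of 64 histone genes, including all 13 H4 genes. Identical copies, such as Hist1h4m and Hist1h4n, are counted separately in the 53. The share over all tested genes was not computed, so this count cannot tell a histone trait from a trait of the library. H2afx, the H2A variant gene of DNA repair, outside these clusters and on a list of other histones, had a similar pattern, at 344, 374 and 541 CPM in JMML and 679, 244 and 240 CPM in WT. GC content moved with the ratio. The median GC of the exons was 64.2% in H2A, 59.9% in H3, 56.2% in H4, 55.9% in H2B and 53.1% in H1, and Spearman's rho of GC with the ratio was 0.50 over the 64 genes, which share libraries and sequence. In other protein-coding genes the median ratio ran only between 0.92 in the 10% of genes with the lowest GC and 1.06 in the 10% with the highest, where 33 of the 64 histone genes lie. The part of GC in the spread of WT was not tested.

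Many H2A and H2B genes lie head to head and share a promoter region, which sets genes of both types side by side. There were 12 such pairs, with 176 to 306 bases between the starts. In 11 pairs with both genes tested, the ratio of WT replicate 1 to the other WT libraries was higher for the H2A gene each time. The median ratio was 2.47 for the H2A genes and 1.17 for all the H2B genes. For Hist1h2br the ratio rests on how reads were shared with its copy, described below. WT replicate 1 was singled out by its high H2A and H3 values, so this order largely follows from that choice and is no separate support. With Hist1h2ap and Hist1h2br (ratios of 2.30 and 0.00612) left aside, the gap was widest in Hist1h2ad and Hist1h2bf, a pair chosen after its values were seen. Hist1h2ad was at 155, 135 and 199 CPM in JMML and 224, 53.0 and 69.9 CPM in WT, while Hist1h2bf was at 238, 189 and 287 CPM in JMML and 210, 158 and 219 CPM in WT. The ratio was 3.64 for the H2A gene and 1.11 for its H2B neighbour.

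**Figure D4:**
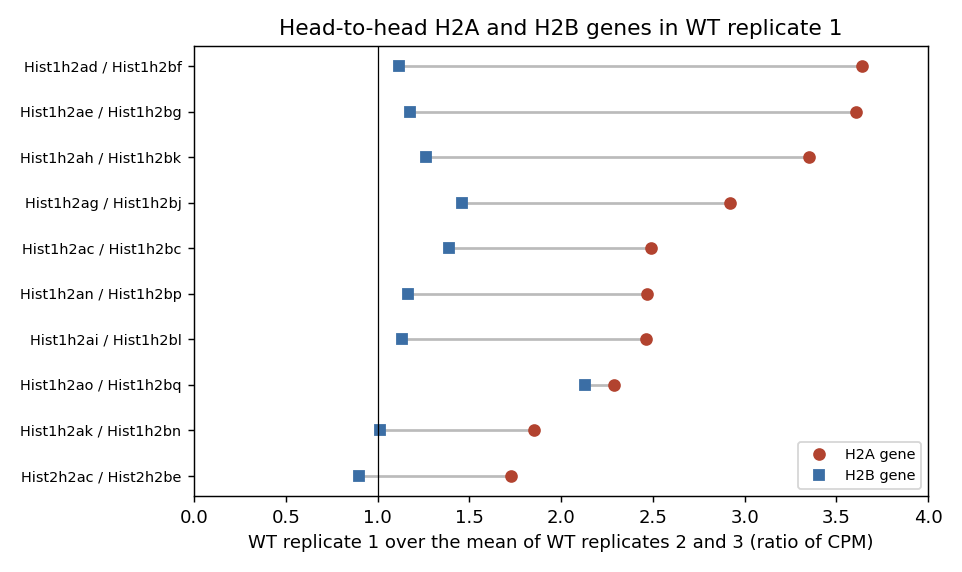
The ratio of CPM in WT replicate 1 to the mean of WT replicates 2 and 3 (horizontal axis) is drawn for the H2A gene (circle) and the H2B gene (square) of head-to-head pairs. Of the 12 pairs, Hist1h2aa with Hist1h2ba (H2A gene not tested) and Hist1h2ap with Hist1h2br (H2B ratio of 0.00612) are not drawn; in the others the circles lie between 1.73 and 3.64, right of their squares.

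H2B genes gave a tighter comparison. They summed to 6095, 5808 and 6996 CPM in JMML and 4988, 3449 and 5449 CPM in WT, and all JMML libraries were above all WT libraries. Taking the higher copy of identical pairs narrowed the gap, to 6094, 5306 and 6993 CPM in JMML and 4987, 3449 and 5152 CPM in WT. The ratio of means was 0.44 on the log2 scale against a pooled SD of 0.27, and the median over the 16 genes was 0.39. Hist1h2bb was at 1004, 692 and 937 CPM in JMML and 707, 418 and 707 CPM in WT, with a log2 fold change of 0.52 ± 0.24 (SE, adjusted p = 0.146). Hist1h2bg was at 715, 551 and 697 CPM in JMML and 530, 380 and 520 CPM in WT, with 0.46 ± 0.18 (SE, adjusted p = 0.0947) and no overlap between groups. Hist1h2bn and Hist2h2bb overlapped, with 0.23 ± 0.21 and 0.32 ± 0.20 (SE, adjusted p = 0.441 and 0.26). Hist1h2be, named here because other settings called it, was at 507, 468 and 660 CPM in JMML and 288, 289 and 478 CPM in WT, with 0.63 ± 0.24 (SE, adjusted p = 0.088). Its annotation spans chr13:23583670-23621124 and overlaps Hist1h1e on the same strand, so reads of the 2 genes may not be told apart. Hist1h2ba, the H2B of the testis, was at 7.69, 12.3 and 11.7 CPM in JMML and 9.17, 3.76 and 6.95 CPM in WT, and its overlapping groups did not differ beyond the threshold (0.67 ± 0.34, SE, adjusted p = 0.182).

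The 2 genes whose estimates pointed most clearly to lower levels in JMML were also H2B genes. Hist2h2be (chr3:96221119-96223738, plus strand) was at 9.41, 9.07 and 7.60 CPM in JMML and 11.9, 13.5 and 12.95 CPM in WT, without overlap. Its log2 fold change was -0.56 ± 0.16 (SE, adjusted p = 0.0369). The call ended with each library left out in turn (adjusted p between 0.0523 and 0.111), with no filter on low counts (0.154), and with the letter that ends the sample identifiers (F in JMML replicates 1 and 2, M in the other 4 libraries) as a covariate (0.0737). Of the 50-base stretches of its transcripts 100% are found in no other gene, against a median of 45.4% over the H2B genes. Hist3h2ba (chr11:58948920-58949533, plus strand), a noncanonical H2B gene away from the large clusters, was at 22.8, 10.9 and 21.3 CPM in JMML and 44.1, 22.8 and 37.1 CPM in WT. JMML replicate 1 and WT replicate 2 were nearly equal, the groups barely separate, and the log2 fold change was -0.92 ± 0.33 (SE, adjusted p = 0.0795). With library totals or with the length trend removed it passed the threshold (adjusted p = 0.0355 in both).

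The 12 H3 genes had 0 calls, and the median of their log2 fold changes was 0.33. Their sum was 4811, 4578 and 5607 CPM in JMML and 5666, 2745 and 3623 CPM in WT, where again WT replicate 1 was above all JMML libraries and the others below. With the higher copy of 3 identical pairs in place of both, as described below, the H3 sum was 4474, 4204 and 5438 CPM in JMML and 5192, 2531 and 3362 CPM in WT, so WT replicate 1 lay within the JMML range. Hist1h3f was at 802, 697 and 881 CPM in JMML and 875, 436 and 568 CPM in WT. Hist1h3c was at 494, 468 and 605 CPM in JMML and 567, 233 and 323 CPM in WT, and its log2 fold change was 0.48 ± 0.31 (SE, adjusted p = 0.277), or 0.96 ± 0.22 (SE, adjusted p = 0.0361) without WT replicate 1. In both genes WT replicate 1, singled out by its high H2A and H3 values, lay among the JMML libraries. Hist1h3b and Hist1h3e had 0.30 ± 0.20 and 0.31 ± 0.21 (SE, adjusted p = 0.297 and 0.308), and Hist2h3b had 0.33 ± 0.28 (SE, adjusted p = 0.416).

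The 13 H4 genes were the most even type, each with a positive estimate, between 0.19 and 0.47 with a median of 0.31, and 0 passed the test; with the length trend removed, Hist1h4i was just below 0. Their sum was 6860, 6013 and 7593 CPM in JMML and 6317, 4478 and 5634 CPM in WT, so that WT replicate 1 lay within the JMML range. Hist1h4d, whose promoter and stem-loop are printed above, was at 1157, 995 and 1234 CPM in JMML and 1017, 894 and 1034 CPM in WT, with a log2 fold change of 0.20 ± 0.14 (SE, adjusted p = 0.317). Hist1h4f was at 716, 625 and 771 CPM in JMML and 572, 372 and 578 CPM in WT, with no overlap and 0.47 ± 0.19 (SE, adjusted p = 0.111). Hist1h4c and Hist1h4h had 0.31 ± 0.19 and 0.25 ± 0.17 (SE, adjusted p = 0.269 and 0.304), and Hist2h4 had 0.32 ± 0.18 (SE, adjusted p = 0.215). Hist4h4, the lone gene of its cluster, was at 270, 246 and 293 CPM in JMML and 243, 184 and 189 CPM in WT. Its groups did not overlap, and it passed the threshold once WT replicate 1 was left out (0.58 ± 0.14, SE, adjusted p = 0.0428).

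Duplicated genes showed how counts were shared between copies. The coding sequences of Hist2h2aa1 and Hist2h2aa2 (390 bases), of Hist1h2bq and Hist1h2br (378 bases) and of Hist2h3c1 and Hist2h3c2 (408 bases) are identical within each pair. So are those of Hist1h2ao and Hist1h2ap and of Hist1h4m and Hist1h4n, whose copies had nearly equal levels in every library (Hist1h2ao at 141 and Hist1h2ap at 142 CPM in WT replicate 2, for example). Hist2h2aa2 was at 747, 810 and 1035 CPM in JMML and 837, 550 and 541 CPM in WT. Hist2h2aa1 was at 746, 807 and 483 CPM in JMML and 838, 12.9 and 9.22 CPM in WT. The copies were nearly equal in JMML replicates 1 and 2 and WT replicate 1, unequal in JMML replicate 3 and far apart in the other 2 WT libraries, although Hist2h2aa2 kept to between 2.39 and 2.96 times its neighbour Hist2h2ac in every library. Hist1h2bq was at 456, 501.5 and 566 CPM in JMML and 348, 0 and 327 CPM in WT. Hist1h2br was at 1.35, 520 and 2.80 CPM in JMML and 1.65, 241 and 297 CPM in WT. So each library had this H2B at 241 CPM or more under at least 1 of the symbols. Hist2h3c2 was at 337, 374 and 507 CPM in JMML and 474, 214 and 262 CPM in WT, and Hist2h3c1 followed it except in JMML replicate 3, at 341, 374 and 170 CPM in JMML and 477, 218 and 261 CPM in WT. The single-copy estimates were accordingly wide, with log2 fold changes of 1.24 ± 1.46 for Hist2h2aa1, 1.18 ± 1.56 for Hist1h2bq and -0.04 ± 2.07 for Hist1h2br (SE, adjusted p between 0.555 and 0.99).

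**Figure D5:**
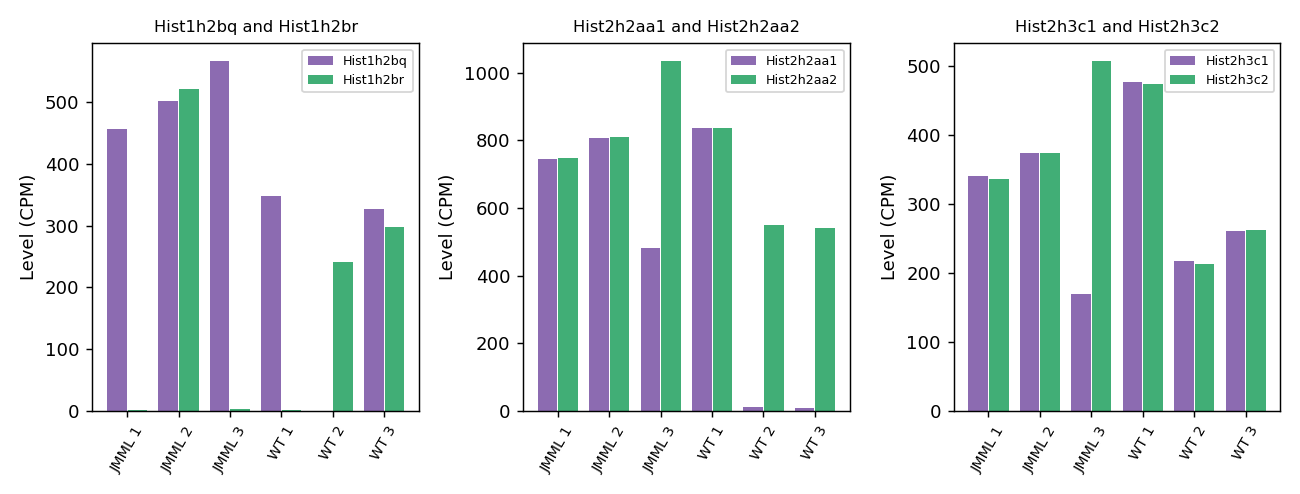
Level (CPM, vertical axis, from 0) of both copies of 3 pairs with identical coding sequence is drawn for each library, JMML left of WT. Hist1h2br is at 1.35 CPM in JMML replicate 1 and 520 CPM in JMML replicate 2, and Hist2h2aa1 is at 12.9 and 9.22 CPM in WT replicates 2 and 3, where Hist2h2aa2 is at 550 and 541 CPM.

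With the higher copy of each pair taken in each library, a step added after the values were seen, Hist1h2bq or Hist1h2br was at 456, 520 and 566 CPM in JMML and 348, 241 and 327 CPM in WT. The groups did not overlap, and this H2B was called higher with a log2 fold change of 0.75 ± 0.17 (SE, adjusted p = 0.0184). The same step gave 0.43 ± 0.22 for Hist2h2aa1 or Hist2h2aa2 and 0.36 ± 0.30 for Hist2h3c1 or Hist2h3c2 (SE, adjusted p = 0.181 and 0.411). Across types, the median share of 50-base stretches found in 1 gene only was 98.9% in H1, 60.5% in H4, 45.4% in H2B, 38% in H3 and 27.0% in H2A. The median log2 fold change was 0.42 in the 12 tested genes with under 10% unique stretches and 0.33 in the 30 genes with over 50%, while the median ratio of the highest to the lowest WT library was 2.33 and 1.52 in the same classes. The class under 10% held 7 H2A, 3 H3 and 2 H2B genes and 0 H1 or H4 genes. It thus differs in type as well, and the part of each was not tested.

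Of 26 genes that make and process histone mRNA, 1 rose (3.85%) and 2 fell (7.69%), both shares below the 12.4% and 13.8% of all tested genes, and the median was -0.04 on the log2 scale. Lsm1, of the decay machinery, was at 18.9, 17.5 and 17.8 CPM in JMML and 12.9, 14.4 and 12.3 CPM in WT (0.45 ± 0.13, SE, adjusted p = 0.0425). Tut4, a terminal uridylyltransferase that can tag histone mRNA for decay, was at 37.2, 39.2 and 37.8 CPM in JMML and 63.0, 95.7 and 70.4 CPM in WT (-1.0 ± 0.16, SE, adjusted p = 0.00696). Pou2f1, which encodes the octamer factor Oct-1, was at 56.3, 60.9 and 54.0 CPM in JMML and 77.7, 90.4 and 81.3 CPM in WT (-0.54 ± 0.11, SE, adjusted p = 0.0119). In these 3 genes the groups did not overlap. Npat, the cyclin E-Cdk2 target that activates histone transcription, was at 74.8, 62.8 and 72.4 CPM in JMML and 90.2, 99.96 and 82.2 CPM in WT, also without overlap but short of the threshold (-0.37 ± 0.12, SE, adjusted p = 0.0537). Slbp was at 95.2, 86.3 and 117 CPM in JMML and 126, 107.97 and 107 CPM in WT, with a log2 fold change of -0.19 ± 0.14 (SE, adjusted p = 0.348). Casp8ap2 (FLASH), needed for 3′ end cleavage, had -0.13 ± 0.16 (SE, adjusted p = 0.566).

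Of 11 other histone genes, on a list named replication-independent, 2 rose (18.2%) and 1 fell (9.09%). These shares were near the 12.4% and 13.8% of all tested genes. Whether each listed gene, H2afx among them, is independent of replication was not tested. H1f0, the linker histone of resting and maturing cells, was at 131, 115 and 106 CPM in JMML and 61.6, 64.8 and 77.0 CPM in WT (0.79 ± 0.13, SE, adjusted p = 0.00697). H2afz, which encodes H2A.Z, was at 469, 353 and 386 CPM in JMML and 277, 221 and 267 CPM in WT (0.66 ± 0.15, SE, adjusted p = 0.0205). H1fx, of the linker family, was low throughout, at 0.195, 0.323 and 0.33 CPM in JMML and 1.55, 1.40 and 1.08 CPM in WT (-2.24 ± 0.36, SE, adjusted p = 0.00663). None of the 3 overlapped between groups. Of 20 histone chaperones and importins, 1 rose (5.0%) and 0 fell, below the shares of all tested genes. It was Asf1b, which hands H3 and H4 to replicating DNA, with 117, 111 and 132 CPM in JMML and 80.8, 69.5 and 90.3 CPM in WT (0.58 ± 0.13, SE, adjusted p = 0.0184). Ipo4, an importin for H3 and H4, was at 17.5, 27.1 and 24.2 CPM in JMML and 44.0, 40.1 and 28.0 CPM in WT (-0.70 ± 0.22, SE, adjusted p = 0.0556).

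Of 42 DNA replication genes, 0 rose and 3 fell (7.14%; Cdc6, Orc1 and Pole), below the 12.4% and 13.8% of all tested genes. Their median was -0.13 on the log2 scale, and they summed to 5683, 5345 and 6976 CPM in JMML and 7424, 6052 and 6353 CPM in WT. Cdc6, which loads the replicative helicase, was at 72.6, 63.1 and 94.1 CPM in JMML and 147, 117 and 112 CPM in WT (-0.71 ± 0.18, SE, adjusted p = 0.026). Pole, the leading-strand polymerase, was at 117, 130 and 138 CPM in JMML and 196, 190 and 169 CPM in WT (-0.53 ± 0.11, SE, adjusted p = 0.0163). Both were below WT in every JMML library. Of 20 mitosis genes, Ccnb2 rose (5.0%) and Mki67 and Cenpf fell (10%), also below those shares, with a median of 0.12. The difference in median between the histone genes and these lists was not tested, and the histone genes are far shorter.

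RNA of blood lineage markers also differed between the groups, where 12.4% of all tested genes were called higher and 13.8% lower. Cell makeup itself was not measured. All 10 B-cell progenitor markers fell, with summed levels of 10.2 to 17.0 CPM in JMML and 140 to 570 CPM in WT, and Vpreb3 was at 0 counts in JMML replicates 1 and 2. Of 10 erythroid markers 7 fell, with sums of 122 to 546 CPM in JMML and 1270 to 1811 CPM in WT. Of 10 granulocyte-monocyte progenitor markers 6 rose, with sums of 4778 to 6553 CPM in JMML and 3669 to 4059 CPM in WT. WT replicate 1, which stood apart in its H2A genes, was at 162 CPM for the B-cell markers, near WT replicate 2 at 140 CPM, and at 1811 CPM for the erythroid markers, above the other WT libraries at 1270 and 1408 CPM. The part of cell makeup in the histone values was not tested.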

How the data were processed

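Total RNA of 3 JMML and 3 WT libraries was sequenced, and the authors deposited raw counts, whole and not normalized, for 46078 Ensembl genes a table (per the file contents). Per the submitters' processing notes the build was GRCm38, and the tools, whose roles are not stated, include the aligner STAR 2.5.3a and, for other steps, StringTie 1.3.3b, DESeq2 1.22.2, R 3.5.0, Picard 2.0.1 and bcl2fastq 2.18.0.12. Not given in the sources used here are the counting tool, its annotation, and how it handled strand, mates and reads with several hits. Of counts from 1 to 20, 51.6% to 58.8% were even in each library, so mates may have been counted separately. Of the identifiers, 45229 matched GENCODE vM21, which gave symbols, positions and exon lengths.

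Counts were tested in R 4.3.3 with edgeR 4.0.16 (quasi-likelihood F test, genes passing filterByExpr), with TMM scaling, Benjamini-Hochberg adjustment over all tested genes and a threshold of 0.05. In a simulation with 88 calls in all, this procedure called 0 of 50 genes changed 1.5-fold. It called 8 of 50 changed 2-fold and 35 of 50 changed 4-fold. With far fewer calls than in the real data, the cut on p was stricter there, so these shares do not carry over. SE was obtained as the size of the log2 fold change over the root of the F statistic. Each count was worth 0.00951 to 0.0192 CPM. Other settings were DESeq2 1.42.0 (its size factors and its Wald test), limma-voom 3.58.1, library totals, no low-count filter, 50 counts in 3 libraries, thinning, a loess offset for exon length (span 0.5, centred), a replicate block, the identifier letter as covariate, letter M only, each replicate left out, and, added later, the higher copy of 3 pairs. The plan took sums over copies not to depend on how reads were split between them. This did not hold, because equal counts of both copies in some libraries mean that reads may enter a sum more than once.

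The members and all 8 lists were chosen with earlier results of these data known. Named genes were the 4 tested members of each type with the highest mean CPM, called members, all Hist2, Hist3 and Hist4 members, the germ-line members, Slbp, Npat and Casp8ap2, and the 2 genes with the smallest p of each list; others were chosen after their values were seen. Sequences came from GENCODE transcripts and RefSeq promoter windows.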

Additional observations from a re-analysis of the deposited data

How the results depend on the processing

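Estimates kept their direction in most settings: of 546 values for 32 named histone genes over the alternatives, 503 kept direction and side of the threshold and 23 changed sign. The histone median stayed between 0.16 (without WT replicate 2) and 0.61 (without WT replicate 1). Over all genes, library totals gave 1280 higher and 3460 lower, against 2245 and 2492 with TMM. The identifier letter as covariate gave 969 higher and 1250 lower, letter M libraries alone 1012 and 1298, and the replicate block 1358 and 1451. Leaving out each replicate gave 1050 to 1955 higher and 1153 to 2048 lower. Histone genes called higher numbered 2 with DESeq2's Wald test, 2 with no low-count filter, 1 under the block, 1 with the higher copy of 3 pairs, and 0 to 15 with a replicate left out; the 15 came without WT replicate 1, and without WT replicate 3 there was 1, Hist1h2be. Those called lower numbered 2 with DESeq2, with the length trend removed and with library totals, and 0 with the letter, with letter M only, with no filter and without any 1 replicate. The median of the genes set beside the histones, 0.28 in the shortest class, was 0.043 in genes with 1 exon and 0.069 in the full length range. Where fewer libraries were used the groups were smaller; otherwise the cause was not tested.

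Same-numbered libraries did not deviate together (correlations of -0.20, 0.042 and -0.13 for numbers 1, 2 and 3), so the numbers are not taken to pair samples. Both libraries numbered 3 carry the same leading identifier, unexplained in the labels, and theirs is the correlation of -0.13. With the block Hist1h2be was called higher and Hist3h2ba lower, and Hist2h2be was not called (adjusted p = 0.087, edgeR). Signs changed for genes near 0, and the cause was not tested. With the letter as covariate, Hist1h1a was 0.089, Hist3h2a 0.15 and Slbp 0.045, and with letter M alone they were 0.13, 0.18 and 0.082. With the length trend removed, Hist1h2ak was -0.049, Hist2h2ab -0.12 and Hist1h1t -0.14, and with library totals they were -0.050, -0.12 and -0.11. Hist1h1t was -0.029 thinned, Hist3h2a 0.0073 with no filter, and Hist2h3c1 0.36 with the higher copy. With a replicate left out, Hist1h1a ran between -0.20 and 0.074, Hist1h2ak between -0.030 and 0.54, Hist2h2ab between -0.11 and 0.52, Hist3h2a between -0.18 and 0.066, Hist2h3c1 between -0.33 and 0.34, and Hist1h1t between -0.057 and 0.27. Depth limits Hist1h2aa, with at most 2 counts, and little else, while sharing of reads limits the copies.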
